A study of Culter alburnus with 6 samples.

Results

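The Krüppel-like factors (KLFs) of TCCF2022 cells were followed with and without Forskolin. KLFs are zinc finger transcription factors that bind GC-rich and CACCC motifs in promoters and enhancers, and together with the Sp factors they form 1 family. In mammals, KLF2, KLF4, KLF5, KLF6 and KLF7 act mostly as activators, KLF3, KLF8 and KLF12 repress through the corepressor CtBP, and KLF9, KLF11 and KLF13 repress through Sin3a. Klf2, Klf4 and Klf5 are best known for their part in pluripotency and in endothelial and epithelial cells.

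TCCF2022 is a wild-type, fibroblast-like line grown from the caudal fin of Topmouth culter (Culter alburnus). The 3 control libraries (CK) came from cells with no Forskolin and the 3 treated libraries (F) from cells kept in 5 μM Forskolin, which activates adenylate cyclase and so raises cAMP. Both groups were cultured for 7 days in the same medium, which by the sample notes holds serum and 5 ng/mL bFGF, a growth factor that all samples therefore share. The values are TPM (transcript abundance scaled for length and to 1 fixed total per library) for rows of a de novo assembly. Each row is 1 gene as the assembly defined it, so that a gene of the fish may be split over several rows. The name of a row comes from the closest protein of another species.

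KLF rows were taken by name, from the closest protein in the NR database or from the gene name of the Swiss-Prot match. Of 61608 rows in the table, 23 were KLF rows. Of these, 19 were named KLF by both databases, 2 by NR alone and 2 by Swiss-Prot alone. They stood for 12 KLF genes, klf2 to klf9, klf11 to klf13 and klf15, and the rule found no row named klf1, klf10, klf14, klf16 or klf17. Of the 23 rows, 18 reached 1 TPM in 3 or more of the 6 libraries and were tested among the 37532 rows that met this filter. All 18 carried an annotated C2H2 zinc finger domain, which was listed for 1672 rows of the whole table. The names rest on similarity to KLF proteins, which hold this domain, so it is no separate evidence for them. Where 2 or more rows shared a name they are numbered by their mean TPM, so that klf5 row 1 is the higher of 2 klf5 rows.

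Names were less certain for some rows. The row called klf11 was named by Swiss-Prot, whereas its NR name was an RNA polymerase I subunit. The 3 klf9 rows were named by NR, and Swiss-Prot called 2 of them Klf13. The klf7 row without a letter had an unnamed NR protein, and the GO terms of the klf6 row without a letter were those of a peptidase. Sequences of the assembled rows were not analysed here, so how far similar copies such as klf2a and klf2b share reads was not tested.

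Libraries were closer within than between groups. Pearson's r of log2(TPM + 1) over the tested rows ran from 0.875 to 0.897 within a group and from 0.828 to 0.857 between groups (a description across rows, which are not replicates). TPM keeps no read number, so the depth behind each value is unknown from the files. The cells carried fibroblast genes such as PRRX1 (442 ± 19.6 TPM in CK against 445 ± 30.1 in F, SD, n = 3) and COL1A1 (12537 ± 1238 and 5198 ± 1042 TPM), but also the simple epithelial keratins KRT8 (2863 ± 51.6 and 2582 ± 229 TPM) and KRT18b (3494 ± 80.1 and 2744 ± 191 TPM). The rows of the fibroblast genes VIM (11.6 ± 5.62 and 10.6 ± 2.75 TPM) and COL1A2 (2.14 ± 0.953 and 0.427 ± 0.739 TPM) were far lower.

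In untreated cells the most abundant KLF was klf6a (TRINITY_DN1253_c1_g1), a member known as an injury-response activator in mammals. It had 61.81, 64.07 and 71.98 TPM in the 3 CK libraries. Next came klf2a and klf2b, whose CK values overlapped each other, then klf13, klf15 row 1 and klf11b. In CK replicate 1 klf2a, at 61.28 TPM, was close to klf6a. The klf2b value in CK replicate 3, 62.06 TPM, lay above the lowest CK value of klf6a. TPM is scaled per length, so these levels can be compared between rows, within the limits of assembled fragments. Together klf2a, klf2b, klf6a and klf13 held 61.0% ± 0.627 of the summed KLF TPM in CK (SD, n = 3). At the low end, klf4 stood at 1.75 to 1.97 TPM and klf5 row 1 at 0.42 to 0.69 TPM.

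**Figure D1:**
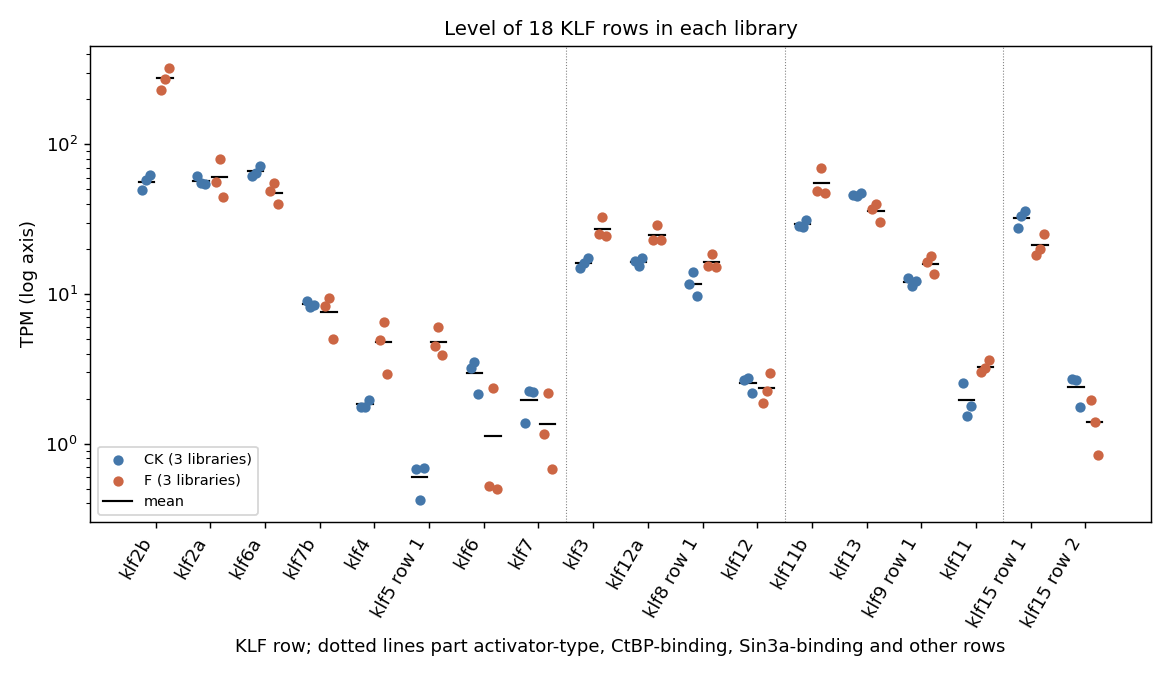
TPM of each of the 18 KLF rows in the 3 CK (blue) and 3 F (orange) libraries on a log axis, with group means as black lines. The klf2b row moved from 49.42 to 62.06 TPM in CK to 229.39 to 325.74 TPM in F, while klf2a stayed among the abundant rows in both groups.

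With Forskolin, 5 of the 18 tested KLF rows rose and 0 fell (limma on log2(TPM + 1), two-sided, Benjamini-Hochberg adjusted p under 0.05 over all 37532 rows). The risers were klf2b, klf5 row 1, klf11b, klf3 and klf12a. Among all tested rows 6.15% were called higher and 6.07% lower, against 27.8% of the KLF rows called higher. The 2 sets were not matched by level. At a filter of 5 TPM the shares of all tested rows were 13.9% and 12.2%. At an unadjusted p under 0.05, 8 KLF rows were higher and 4 lower, where 13% and 12.7% of all tested rows were. Only klf2b and klf5 row 1 also passed a log2 threshold of 1, here on log2(TPM + 1). The paper's methods use the same number with a count-based test. Of all tested rows 3.27% passed it upward and 3.9% downward. One of them, klf5 row 1, was under 1 TPM in every CK library and passed the level filter through its F values alone. Fitted without the filter, 4 of the 22 KLF rows with any signal rose and 0 fell, against 2.72% and 2.8% of 59915 rows, and the row lost was klf12a (adjusted p = 0.0527 from limma). In that fit the 2 risers past the fold threshold were set against 1.54% of all rows upward and 1.84% downward. These counts depended on single libraries. Without any 1 of the CK libraries the number of risers was 2, without F replicate 1 it was 3, and without F replicate 2 or 3 it was 5. Over all tested rows the share called higher also moved, to 2.48% to 3.20% without any 1 CK library, to 3.04% when F replicate 1 was left out, and to 4.20% or 5.18% when F replicate 2 or 3 was. The library left out also set whether a row fell, with 1 lower row without F replicate 2 (klf6a, adjusted p = 0.0478 from limma) and 1 without F replicate 3 (klf15 row 1, adjusted p = 0.0371). Of all tested rows, 5.03% and 4.57% were lower in these fits.

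**Figure D2:**
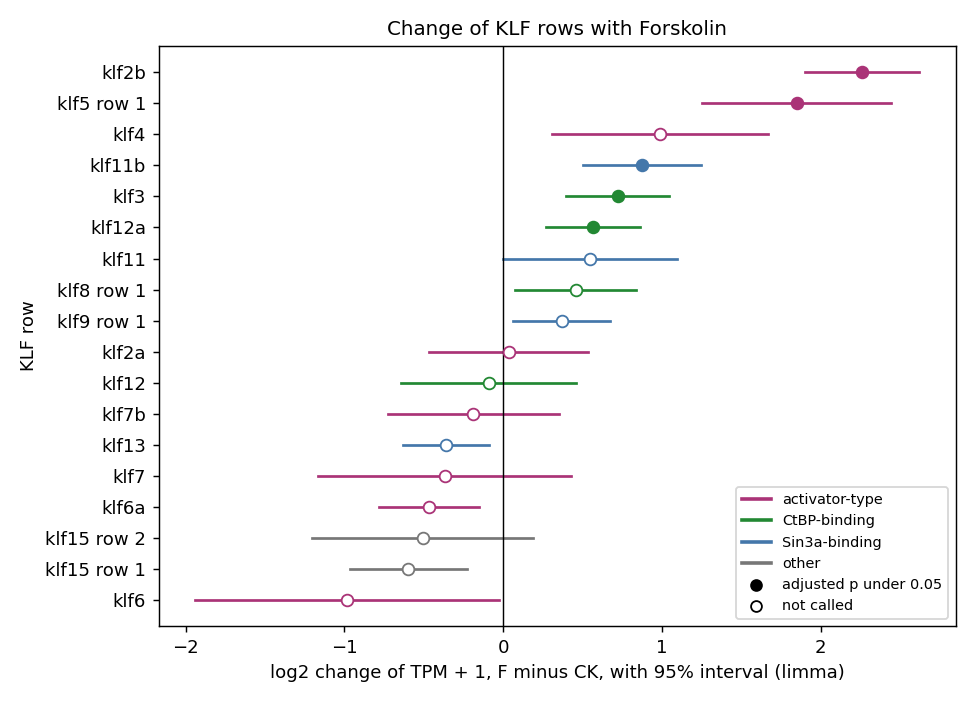
Log2 change of TPM + 1 (F minus CK) of the 18 tested KLF rows with its 95% interval from limma, coloured by branch of the family, and filled where the adjusted p was under 0.05. Filled points belong to klf2b, klf5 row 1, klf11b, klf3 and klf12a, all to the right of 0.

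The activator-type rows held the widest range of changes, from −0.99 for klf6 to 2.26 for klf2b on the log2 scale. Klf2 keeps endothelial cells quiescent in mammals and is 1 of the Klf factors that maintain mouse embryonic stem cells. The klf2b row (TRINITY_DN3442_c0_g2) had 49.42, 57.44 and 62.06 TPM in CK and 229.39, 272.02 and 325.74 TPM in F. The lowest F library thus lay far above the highest CK library. The ratio of the means was 4.90, and the log2 change was 2.26 (95% interval 1.90 to 2.62, adjusted p = 0.000685 from limma). It passed with each library left out, at log2 changes of 2.14 to 2.39.

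The klf2a row (TRINITY_DN4360_c0_g1) behaved otherwise. It had 61.28, 55.51 and 54.76 TPM in CK and 56.03, 80.28 and 44.45 TPM in F. The F values lay on both sides of the CK values, with F replicate 2 above and F replicate 3 below all of them. The log2 change was 0.03 with a 95% interval of −0.47 to 0.53 (adjusted p = 0.942 from limma), so a change of either sign within that interval was not excluded by 3 against 3 libraries. Leaving out F replicate 2 gave −0.19, and leaving out F replicate 3 gave 0.23 (adjusted p = 0.403 and 0.468 from limma).

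The paralogs were therefore compared inside each library, where the scaling between libraries has no part. The klf2b row had 0.806, 1.03 and 1.13 times the TPM of klf2a in CK and 4.09, 3.39 and 7.33 times in F. The 3 F ratios lay above the 3 CK ratios. On the log2(TPM + 1) scale the ratio was −0.03 ± 0.25 in CK and 2.203 ± 0.57 in F, a difference of 2.23 (two-sided p = 0.1 by an exact permutation test of 1 pair, the lowest p possible with 3 against 3). With 1 library left out the difference ran from 1.91 to 2.46. The klf7 pair could not be compared, because klf7a was listed at 0 in every library.

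**Figure D3:**
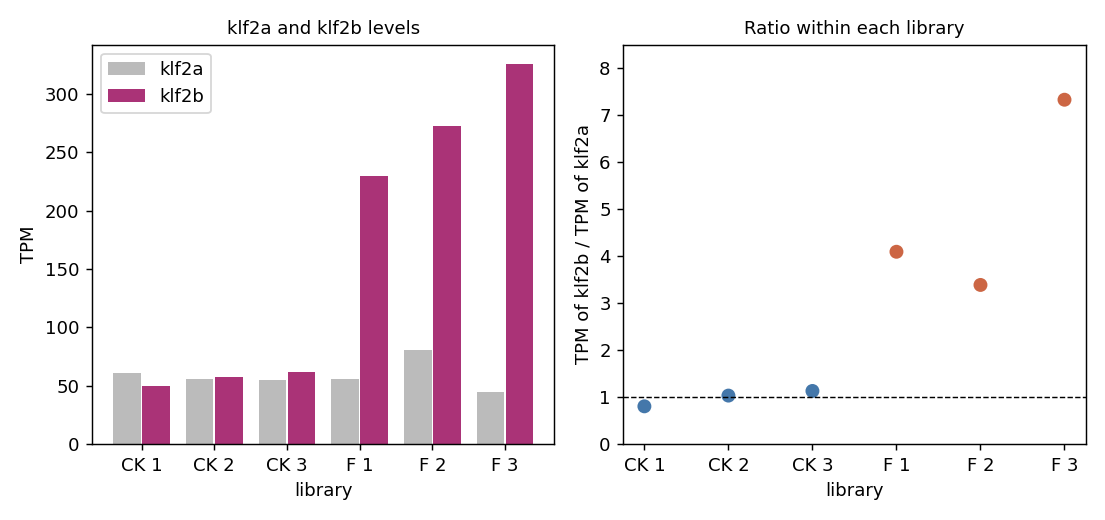
Left, TPM of klf2a (grey) and klf2b (purple) in each library. Right, the ratio of klf2b to klf2a TPM in each library, with the dashed line at 1; the CK ratios lie between 0.806 and 1.13 and the F ratios between 3.39 and 7.33.

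Klf5, an activator in epithelia and proliferating cells, was read from 2 rows. The klf5 row 1 (TRINITY_DN22795_c0_g1) had 0.68, 0.42 and 0.69 TPM in CK and 4.5, 6 and 3.89 TPM in F. All F libraries lay above all CK libraries, at levels that were still low. The log2 change was 1.85 (95% interval 1.25 to 2.45, adjusted p = 0.00714 from limma), on a scale where the added 1 shrinks the change of a row this low, and with 0.1 added instead it was 2.82. Fitted without the level filter it passed (adjusted p = 0.0112 from limma), but with 1 library also left out it passed only without F replicate 3, and otherwise had an adjusted p from 0.0535 to 0.0736. The other klf5 row had 0.62 to 1.33 TPM over the 6 libraries, with overlapping groups, and did not reach the filter. With both rows summed the log2 change was 1.29 (adjusted p = 0.0136 from limma).

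Klf4, a reprogramming factor in mammals and a regulator of epithelial barriers, was read from 1 row (TRINITY_DN4705_c0_g1). It had 1.75, 1.77 and 1.97 TPM in CK and 4.95, 6.51 and 2.94 TPM in F. Every F value exceeded every CK value, and the F values spread over a wider range than the CK values. The log2 change was 0.99 with a 95% interval of 0.31 to 1.67, and its adjusted p of 0.076 from limma did not pass. The paper reports a significant rise of Klf4 in its own RNA-seq comparison, which used a count-based test. It also reports a rise by qRT-PCR at an earlier day. The threshold missed here is that of a different test, on TPM, and why the results differ was not tested. The added 1 shrinks this change too, and with 0.1 added instead it was 1.27 (adjusted p = 0.0643 from limma). The call turned on F replicate 3, the lowest F library for this row, without which the log2 change was 1.241 (adjusted p = 0.0344 from limma). Without any other single library the adjusted p lay between 0.158 and 0.1998 in limma, and quantile normalization brought it to 0.0462.

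The remaining activator-type rows were not called. The klf6a row had 48.50, 54.78 and 39.73 TPM in F, each below its 3 CK values, and a log2 change of −0.47 (95% interval −0.78 to −0.15, adjusted p = 0.0711 from limma). After median-of-ratios scaling or quantile normalization it was called lower (adjusted p = 0.0258 and 0.0270 from limma). The second klf6 row had 3.19, 3.52 and 2.14 TPM in CK and 0.52, 2.36 and 0.50 TPM in F, so F replicate 2 alone overlapped the controls. Its log2 change was −0.99 (adjusted p = 0.182 from limma), and −1.37 without F replicate 2 (adjusted p = 0.0538). The klf7b row, whose mammalian counterpart is active in neurons, ranged from 5.01 to 9.41 TPM over all libraries, and the klf7 row from 0.68 to 2.26 TPM, with overlapping groups in both.

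The CtBP-binding rows had smaller changes. Klf3 restrains fat and blood cell differentiation genes in mice, and its row (TRINITY_DN9277_c0_g3) rose from 14.89, 16.06 and 17.40 TPM in CK to 25.29, 32.66 and 24.24 TPM in F. The groups did not overlap, and the log2 change was 0.72 (95% interval 0.40 to 1.05, adjusted p = 0.0208 from limma). The klf12a row (TRINITY_DN2278_c0_g5), named for a repressor of the AP-2alpha gene in mammals, rose from 16.61, 15.31 and 17.47 TPM to 22.88, 29.12 and 22.91 TPM, a log2 change of 0.57 (95% interval 0.27 to 0.86, adjusted p = 0.0322 from limma). The klf8 row 1 had 11.60, 13.99 and 9.67 TPM in CK and 15.49, 18.63 and 15.10 TPM in F. Its F values were all higher, but its log2 change of 0.46 did not pass (adjusted p = 0.127 from limma). The klf12 row without a letter stayed between 1.86 and 2.95 TPM, with overlapping groups. The summed TPM of the CtBP-binding rows was 48.1 ± 1.96 in CK and 71.3 ± 10.3 in F (SD, n = 3). The calls of klf3 and klf12a were the least steady. With 1 library left out klf3 passed only without F replicate 2 or 3, and klf12a only without F replicate 2, with adjusted p in limma of up to 0.0802 and 0.117.

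Among the Sin3a-binding rows, klf11b (TRINITY_DN1556_c0_g1), named for a TGF-beta-inducible early gene of mammals, rose from 28.55, 28.03 and 31.15 TPM in CK to 48.98, 69.17 and 47.58 TPM in F. No F value reached down to the controls, and the log2 change was 0.88 (95% interval 0.51 to 1.25, adjusted p = 0.0170 from limma). Leaving out a CK library raised its adjusted p above the threshold each time (0.0523 to 0.0702 in limma), and leaving out an F library did not. The klf9 row 1, named for a gene that glucocorticoid and thyroid hormones induce in vertebrates, had 12.74, 11.26 and 12.23 TPM in CK and 16.36, 17.89 and 13.62 TPM in F. The groups were apart, but the log2 change of 0.37 did not pass (adjusted p = 0.124 from limma). The klf11 row had 1.53 to 2.56 TPM in CK and 3.02 to 3.62 TPM in F (log2 change 0.55, adjusted p = 0.197 from limma). The klf13 row went the other way, from 45.76, 44.93 and 47.29 TPM to 37.07, 40.08 and 30.25 TPM. Its log2 change of −0.36 did not pass (adjusted p = 0.0966 from limma), though it did after median-of-ratios scaling (adjusted p = 0.0363) or quantile normalization (adjusted p = 0.0421).

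Klf15 controls amino acid, glucose and lipid metabolism in mammalian muscle and liver. The klf15 row 1 (TRINITY_DN29848_c0_g2) had 27.62, 33.31 and 36.13 TPM in CK and 18.28, 19.96 and 25.09 TPM in F. All F values were lower, and the log2 change of −0.60 (95% interval −0.96 to −0.23) had an adjusted p of 0.0545 from limma, just outside the threshold. The second row came from the same assembly cluster and had 2.71, 2.67 and 1.75 TPM in CK and 1.96, 1.40 and 0.84 TPM in F. With both rows summed, klf15 was called lower (log2 change −0.61, adjusted p = 0.0318 from limma).

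The 5 rows under the filter were klf7a, at 0 in every library, klf5 row 2, klf8 row 2, and klf9 rows 2 and 3. Apart from klf7a, their highest values ran from 1.33 to 2.42 TPM. The klf8 row 2 carried a THAP domain and the KEGG name SP3, which places its KLF name in doubt. The klf9 row 3 had 0.19 to 0.48 TPM in CK and 0.69 to 1.86 TPM in F and did not pass when fitted without the filter (adjusted p = 0.382 from limma).

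Across the family, 9 of the 18 tested rows had every F library above every CK library, 3 had every F library below, and 6 overlapped. Over all tested rows the shares were 16.4% and 15.7%, so 32.1% in total did not overlap, against 66.7% of the KLF rows. The median log2 change was 0.20 over the KLF rows and −0.01 over all tested rows. Both figures describe rows that passed the level filter. The KLF rows and all tested rows were not matched by level. The share of rows without overlap was not computed at a filter of 5 TPM. By limma calls, which are another measure, 13.9% of all tested rows were higher and 12.2% lower at that filter. The F libraries were not alike for these rows. F replicate 2 was the highest of the 3 F libraries in 13 of 18 KLF rows (44.3% of all tested rows) and F replicate 3 the lowest in 13 (40.3% of all tested rows). The klf2b row was 1 of 4 with their highest F value in F replicate 3. Whether growth state or library quality differed between these libraries was not tested.

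**Figure D4:**
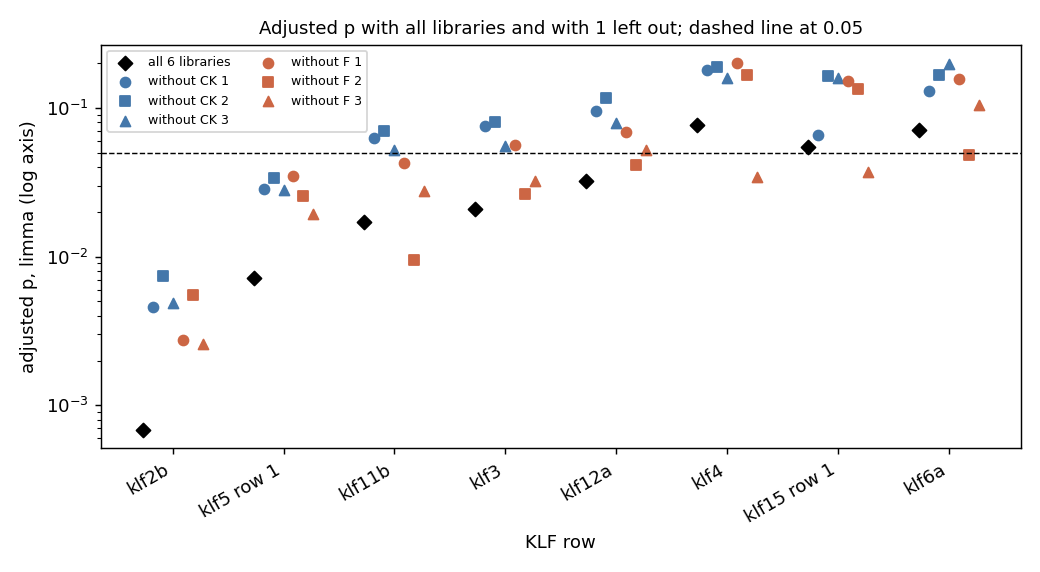
Adjusted p from limma (log axis) of 8 KLF rows with all 6 libraries (black) and with 1 CK (blue) or 1 F (orange) library left out; the dashed line is 0.05. The klf2b and klf5 row 1 points all lie under the line, those of klf11b, klf3 and klf12a on both sides of it, and klf4 under it only without F replicate 3. These fits kept the level filter, which klf5 row 1 passed through its F values alone. Fitted without the filter and with 1 library left out, klf5 row 1 passed only without F replicate 3.

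The summed TPM of all 23 KLF rows was 369 ± 13.2 in CK and 611 ± 63.3 in F (SD, n = 3). Of this sum, klf2b held 15.2% ± 1.23 in CK and 45.2% ± 7.02 in F. Without klf2b the sum was 313 ± 7.18 TPM in CK and 335 ± 59.8 TPM in F, with 308 to 321 TPM in the CK libraries and 286 to 402 TPM in the F libraries, which overlapped. The share of klf6a was 17.8% ± 0.819 in CK and 7.83% ± 1.21 in F, and that of klf13 was 12.5% ± 0.315 and 5.89% ± 0.917. In F, the order of the means was klf2b, klf2a, klf11b, klf6a and klf13. The klf2b values lay above those of klf2a in every F library, and from klf2a to klf13 each row overlapped with the next.

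**Figure D5:**
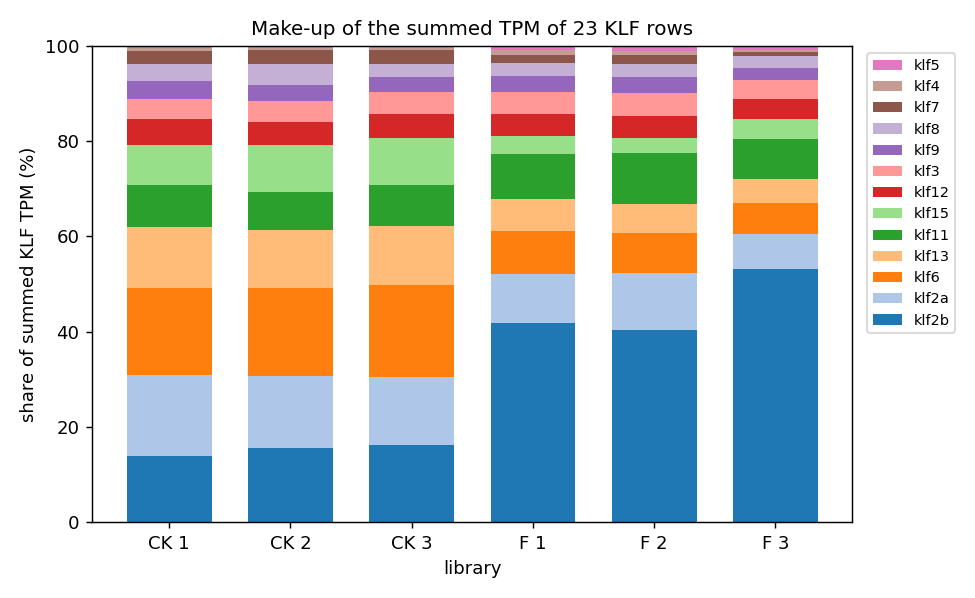
Share of the summed TPM of the 23 KLF rows that each KLF gene held in each library, with klf2a and klf2b apart and the rows of other genes added together. The klf2b share was 15.2% on average in CK and 45.2% in F.

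The rows whose 6 values lay nearest to those of klf2b, klf2a, klf4 and klf5 row 1, by Euclidean distance of centred log2(TPM + 1) over the 6 libraries among 10004 named rows with a mean of at least 5 TPM, are given as a description. Nearest to klf2b were Malt1 (a protease of NF-kappa B signaling, distance 0.354), Cntfr, a cytokine receptor subunit (0.399), and the salt-inducible kinase Sik2 (0.412). Nearest to klf5 row 1 were a Tbx2 row (a T-box transcription factor, 0.181), the pseudokinase Trib1 (0.216) and the receptor kinase Grk5 (0.216). Nearest to klf4 were a row named erythroferrone by NR and MFN1 by Swiss-Prot (0.128), the semaphorin Sema3f (0.146) and the nuclear receptor corepressor Nrip1 (0.168). Nearest to klf2a was a LAMP1 row that NR calls CD68, a lysosomal membrane protein (0.112). All of these distances come from the same 6 libraries.

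Of the Sp factors, the other branch of the family, 7 rows were tested, of which 1 was higher and 0 were lower by limma (2 and 0 at an unadjusted p under 0.05). The shares of all tested rows, which hold for each list that follows, were 6.15% higher and 6.07% lower, or 13% and 12.7% at an unadjusted p under 0.05. The riser was SP9, a factor of limb and fin outgrowth, which went from 30.96, 30.53 and 34.64 TPM in CK to 100.33, 141.25 and 127.06 TPM in F (log2 change 1.89, adjusted p = 0.000915 from limma). SP7, the osteoblast factor osterix, had 22.47, 36.06 and 47.80 TPM in CK and 57.42, 76.66 and 94.21 TPM in F, which do not overlap, and did not pass (log2 change 1.12, adjusted p = 0.065). The ubiquitous SP1 had a log2 change of 0.24 (adjusted p = 0.372 from limma). The median log2 change of the 7 Sp rows was 0.13, against −0.01 for all tested rows. Of the related Egr and Wt1 zinc finger genes, 3 rows were tested and 0 were called in either direction by limma. At an unadjusted p under 0.05, 1 was higher and 0 were lower. Without F replicate 3, 1 was higher, where 5.18% of all tested rows were. EGR1, an immediate early gene, averaged 110 ± 24.9 TPM in CK against 133 ± 96.9 TPM in F, with overlapping groups.

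In mammalian endothelium, Klf2 and Klf4 are induced by the kinase ERK5 (MAPK7) through MEF2 factors, and class IIa histone deacetylases hold MEF2 back. Of 16 tested rows of this route, 3 were higher and 3 lower, against 6.15% and 6.07% of all tested rows (5 and 4 at an unadjusted p under 0.05, median log2 change 0.02). The rows that fell were HDAC9B (CK 17.8 ± 2.49 TPM, F 3.27 ± 0.365 TPM, log2 change −2.13, adjusted p = 0.000845 from limma), MEF2B (log2 change −1.26, adjusted p = 0.00416) and HDAC7 (log2 change −0.76, adjusted p = 0.00446). Those that rose were HDAC4 (log2 change 1.008, adjusted p = 0.017 from limma), MEF2C (0.72, adjusted p = 0.00819) and MAP3K3 (0.50, adjusted p = 0.0295). NR names the MAP3K3 row mitogen-activated protein kinase kinase kinase 22. MAPK7 itself, at 9.09 ± 1.04 TPM in CK against 8.42 ± 1.19 TPM in F, did not pass (adjusted p = 0.734 from limma, log2 change −0.10). Without CK replicate 2, CK replicate 3 or F replicate 1, the number of higher rows was 1. In these fits 2.48%, 3.10% and 3.04% of all tested rows were higher.

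Of 14 tested rows for KLF cofactors and for enzymes that turn KLF proteins over, 1 was higher and 0 were lower by limma (4 and 0 at an unadjusted p under 0.05, median log2 change 0.12). That is near the 6.15% of all tested rows called higher. The riser was CTBP2a, of the CtBP corepressors that Klf3, Klf8 and Klf12 recruit in mammals, from 22.35, 22.59 and 24.49 TPM in CK to 54.63, 63.75 and 56.86 TPM in F (log2 change 1.297, adjusted p = 0.000693 from limma). CTBP1 had a log2 change of 0.40 (adjusted p = 0.0796 from limma), and HDAC1-B, the most abundant of these rows, 0.24 (adjusted p = 0.0519). WWP1, a ubiquitin ligase of Klf2 and Klf5 in mammals, did not pass, at 35.0 ± 1.69 TPM in CK against 31.0 ± 2.97 TPM in F (adjusted p = 0.313 from limma, log2 change −0.17).

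Of 23 tested rows for genes described as KLF targets in mammals, 4 were higher and 5 lower, against 6.15% and 6.07% of all tested rows (6 and 8 at an unadjusted p under 0.05, median log2 change −0.15). The largest fall was that of CEBPA, a fat cell regulator, from 11.37, 11.39 and 12.10 TPM in CK to 0.12, 0.48 and 0.07 TPM in F (log2 change −3.38, adjusted p = 0.000615 from limma). PDGFA, a growth factor that KLF5 induces in mouse vessels, fell (log2 change −1.97, adjusted p = 0.00658 from limma), as did the arginine synthesis enzyme ASS1 (−1.21, adjusted p = 0.00662), the smooth muscle actin ACTA2 (−2.75, adjusted p = 0.0072) and KRT18 (−0.54, adjusted p = 0.0171). A row of the lipid receptor S1PR1 (log2 change 1.16), the cyclin CCNB1 (1.06), the phosphatase ALPL (1.013) and the TGF-beta inhibitor SMAD7 (0.99) rose, with adjusted p in limma from 0.00885 to 0.0122. The ACTA2, S1PR1 and SMAD7 rows have these names from Swiss-Prot, and NR calls them hypothetical proteins. The more abundant S1PR1a row, which NR names sphingosine 1-phosphate receptor 5a, did not pass. It had 34.2 ± 4.03 TPM in CK against 29.2 ± 2.76 TPM in F (log2 change −0.22, adjusted p = 0.318 from limma). Without CK replicate 2, 2 rows were higher, where 2.48% of all tested rows were. Thrombomodulin (THBD), a Klf2 target in endothelium, averaged 2.77 TPM in CK against 5.05 TPM in F and did not pass (adjusted p = 0.0779 from limma).

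Markers of cell types in which KLFs are prominent were read beside these values. Of 9 endothelial genes, 4 were matched by a row, and their summed level was 17.1 to 22.03 TPM in CK and 17.3 to 19.4 TPM in F. The receptor KDRL fell (8.83 ± 0.451 TPM in CK against 1.66 ± 0.216 in F, adjusted p = 0.00168 from limma, log2 change −1.89), whereas FLI1 (1.92 ± 0.425 TPM in CK, 4.79 ± 1.36 in F, log2 change 0.97, adjusted p = 0.0558) and ERG (7.84 ± 1.72 and 10.3 ± 1.71 TPM, log2 change 0.36, adjusted p = 0.305) did not pass. With a pseudocount of 0.1, median-of-ratios scaling or quantile normalization, 1 endothelial row was called higher. Of all tested rows, 5.74%, 6.77% and 7.10% were higher in these fits. No row was matched to CDH5, PECAM1, TIE1, TEK or VWF. Of 11 epithelial genes, 6 were matched, with a summed level of 7044 to 7277 TPM in CK and 5452 to 6062 TPM in F, nearly all of it KRT8 and KRT18. The row matched to CDH1, which NR names neural-cadherin, had a value only in F replicate 3 (5.37 TPM). Of the 5 epithelial rows tested, 0 rose (0 also at an unadjusted p under 0.05) and 2 fell, against 6.15% and 6.07% of all tested rows. They were KRT18 and EPCAM, the latter at 83.8 ± 6.64 TPM in CK against 31.1 ± 1.67 in F (adjusted p = 0.000542 from limma, log2 change −1.40). Without any 1 CK library or F replicate 1, 1 epithelial row fell. Of all tested rows, 2.68% to 3.44% fell without any 1 CK library and 3.48% without F replicate 1. Of 11 fibroblast genes, all were matched, and 1 of 11 tested rows was higher (DCN) and 3 were lower (LUM, COL1A1 and TWIST1), against the same shares of all tested rows. NR names the TWIST1 row twist3. Without CK replicate 2 the counts of higher and lower fibroblast rows were 0 and 1, where 2.48% and 2.68% of all tested rows were called. Without F replicate 1 no fibroblast row was higher, where 3.04% of all tested rows were. The summed fibroblast level was 15075 to 17776 TPM in CK and 7011 to 9885 TPM in F. Most of it was COL1A1, at 12537 ± 1238 TPM in CK and 5198 ± 1042 in F. The other 7 tested fibroblast rows, PRRX1 and PDGFRA among them, were called in neither direction. Of 8 leukocyte genes 2 were matched, at 0.95 to 4.3 TPM summed, and of 7 muscle genes 1 was, at 0 to 2.1 TPM. Of 8 erythroid genes 3 were matched, and their sum stayed under 4 TPM except in F replicate 1, where HBA had 69.06 TPM and 0 in the other 5 libraries. Of 7 pigment and glial genes 1, MITF, was matched by 2 rows, at 5.96 to 9.52 TPM summed. The more abundant of these rows (4.30 to 7.79 TPM) is named transcription factor E3b by NR. Fewer cells of a type and less RNA per cell cannot be told apart in these bulk samples, and the part of these marker shifts in the KLF values was not tested.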

How the data were processed

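RNA-seq was done on 3 CK and 3 F libraries. By the paper's methods, the authors assembled reads with Trinity and made the deposited TPM with RSEM 1.3.3. The KLF rows carry Trinity identifiers and so come from the assembly. The submitters' processing notes also list TopHat2 2.1.1 and Cufflinks 2.2.1, tools for genome-aligned reads, and what part these had is not settled. The paper and the sample notes give these libraries 1 Forskolin dose, and the paper's medium for keeping treated cells holds a lower dose and more bFGF. The authors' group mean columns were not used.

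For rows reaching 1 TPM in 3 or more of the 6 libraries, F was compared with CK on the log2(TPM + 1) scale by limma 3.58.1 (R 4.3.3, moderated variance with a mean trend, no covariate). The paper's count-based test could not be run on TPM. Exact permutation tests used SciPy 1.17.1. Errors are SD over n = 3 libraries of 1 line, called biological replicates in the paper's methods. The labels do not say whether they were separate cultures, so p-values cover only the spread between these samples. List rows were matched by Swiss-Prot name, 1 row per symbol and paralog letter.

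The KLF rows and the gene lists were chosen with earlier results of these data known. Every KLF row is named. Of each list, up to 3 rows with the smallest adjusted p and the most abundant row could be named, and not all of these are. Other list rows named were chosen after their values were seen. On 37532 simulated rows of this comparison, 41% of log2 changes of 1 and 78% of 2 were recovered. These changes were set only into a small part of the rows, each averaging 5 TPM or more. In the data, 6.15% of tested rows were called higher and 6.07% lower. Adjustment over all rows is stricter where fewer rows change, so the simulated recovery does not measure recovery in the data. Recovery at lower levels, such as those of klf4 and klf5 row 1, was not simulated. Alternatives were quantile normalization, a pseudocount of 0.1, median-of-ratios scaling, other filters (none, 5 TPM, a mean of 1 TPM), no variance trend, a replicate block, TPM summed per KLF name and each library left out.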

Additional observations from a re-analysis of the deposited data

How the results depend on the processing

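With 1 choice changed at a time, the klf2b and klf5 row 1 calls held under all alternatives that tested these rows (15 and 14), at adjusted p of up to 0.00743 and 0.0487 in limma. The calls of klf11b, klf3 and klf12a held under 11, 9 and 7 of 15. The 5 rises became 3 with eBayes without trend, 2 with a replicate block, and 2 to 5 with 1 library left out, where the share of all tested rows called higher went from 6.15% to 4.53%, 2.51%, and 2.48% to 5.18%. The 0 falls became 2 at a filter of 5 TPM (klf6a and klf15 row 1) and 2 after median-of-ratios scaling or quantile normalization (klf6a and klf13). They became 1 with TPM summed per KLF name, 1 with a replicate block, and 0 to 1 with 1 library left out. Of all tested rows, 12.2% were lower at the 5 TPM filter, 6.66% after median-of-ratios scaling and 6.30% after quantile normalization. The share was 6.07% with summed TPM, 2.85% with the block and 2.68% to 5.03% with 1 library left out. At the 5 TPM filter 4 KLF rows were higher, where 13.9% of all tested rows were. Fewer KLF rows were tested there, because klf4, klf5 row 1, klf6, klf7, klf11, klf12 and klf15 row 2 did not reach this filter. The 2 rises past the fold threshold became 1 at a filter of 5 TPM, which removed klf5, and 2 to 3 with 1 library left out. Apart from the changed sets of rows and libraries, the cause was not tested.

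Without the level filter, alternatives chosen after seeing the data gave, for the 4 rises, 2 with eBayes without trend, 1 with a replicate block and 1 to 3 with 1 library left out. The share of all rows called higher went from 2.72% to 1.38%, 0.963%, and 0.501% to 2.97% in these fits. The 0 falls became 1 after quantile normalization or median-of-ratios scaling, where 2.88% and 3.12% of all rows were lower. The 2 rises past the fold became 1 with the replicate block and 1 to 2 with 1 library left out. The klf2b call held in each of these fits. The klf5 row 1 call was lost with the replicate block (adjusted p = 0.0707 from limma) and without any library but F replicate 3 (0.0535 to 0.0736). Over the other lists, fitted with the level filter, 10 rows were higher and 13 lower, and with 1 library left out 5 to 12 and 10 to 14. Of all tested rows, 6.15% were higher and 6.07% lower. With 1 library left out these shares were 2.48% to 5.18% and 2.68% to 5.03%.

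The labels do not say whether equal replicate numbers pair the samples, and correlations taken over all tested rows cannot exclude it. Deviations of same-numbered libraries correlated at 0.00552, 0.00903 and 0.00608, under 0.1 in each pair, though each library correlated best with its own number. With the replicate block, klf15 row 1 was called lower (adjusted p = 0.0454 from limma).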
